A study of Mus musculus with 4 samples.

Results

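The 450 promoter regions described here were called as peaks of accessible chromatin in both wild-type (WT) posterior forelimb buds and in neither Shh-/- forelimb bud. They were found by merging the peaks of 4 libraries that overlapped by at least 1 bp into 44692 regions, of which 17508 overlapped a promoter window, which ran from 2 kb before to 1 kb beyond a transcription start site (TSS). Of the 8031 promoter regions called in both WT libraries, 3093 were also called in both Shh-/- libraries, 4479 in Shh-/- replicate 2 alone, 9 in Shh-/- replicate 1 alone and 450 in no Shh-/- library. The share without a Shh-/- peak was therefore 5.60% of these promoter regions, against 31.4% of the distal regions called in both WT libraries and 2.09% of all merged regions called in any library. Because membership was decided by the peak calls themselves, the calls and scores of these regions are given as a description and no test of WT against Shh-/- is made on them.

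The assay was ATAC-seq, where a transposase (Tn5) tags open chromatin with sequencing adapters. Posterior forelimb buds were taken at E10.5 (35 somites) from 2 embryos of each genotype, all of Swiss Webster background, and each library was made from 5000 cells with 18 cycles of PCR. Shh-/- embryos lack functional Sonic hedgehog (SHH) in every cell, so the mutant is a model of absent ligand throughout development and not of acute loss of signal. Each library is written below by its genotype and replicate number, as WT 1, WT 2, Shh-/- 1 and Shh-/- 2.

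In the limb bud, SHH is made by posterior mesenchyme and signals through the receptor PTCH1, which relieves repression of the membrane protein SMO at the primary cilium and changes the processing of GLI transcription factors from repressors to activators. Promoters are the DNA around a TSS where RNA polymerase is loaded. Many are CpG islands, which are rich in GC and CpG and tend to be open in most cell types, while promoters poor in CpG are more often open in a restricted set of cells.

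The sequences of 6 of these regions show what the set contains, from promoters rich in GC to those of CpG-poor and duplicated genes. They are stretches outside annotated exons, taken from the mm10 assembly of RefSeq and written 5′ to 3′ along the gene, with matches to the sequence motifs named below in capitals. The Rrp36 stretch lies at chr17:46674353-46674472 (minus strand), directly upstream of the TSS, and its capitals are, in order, a GC box, a CCAAT box and an ETS motif. The Kcnq1ot1 stretch at chr7:143296550-143296669 (minus strand) holds a CCAAT box. Zfp426 at chr9:20492747-20492866 (minus strand) has a GC box and a cAMP response element, and Gm22265 at chr1:192745687-192745806 (plus strand) has no CpG at all in 120 bp. Gm14410 at chr2:177206439-177206558 (minus strand) and Gm14403 at chr2:177498166-177498285 (plus strand) are shown because stretches of both are the same.
Rrp36: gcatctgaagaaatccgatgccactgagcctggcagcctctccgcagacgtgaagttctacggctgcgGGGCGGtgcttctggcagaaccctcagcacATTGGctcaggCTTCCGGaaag
Kcnq1ot1: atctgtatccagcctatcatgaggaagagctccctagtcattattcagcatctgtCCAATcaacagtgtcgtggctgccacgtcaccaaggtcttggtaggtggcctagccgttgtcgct
Zfp426: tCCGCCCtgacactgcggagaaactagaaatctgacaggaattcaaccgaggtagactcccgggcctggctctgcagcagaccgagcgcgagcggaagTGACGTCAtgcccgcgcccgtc
Gm22265: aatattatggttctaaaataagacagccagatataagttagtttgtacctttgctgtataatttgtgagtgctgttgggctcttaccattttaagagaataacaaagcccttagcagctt
Gm14410: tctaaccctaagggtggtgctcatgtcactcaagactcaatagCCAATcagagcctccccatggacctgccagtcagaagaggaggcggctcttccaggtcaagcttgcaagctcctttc
Gm14403: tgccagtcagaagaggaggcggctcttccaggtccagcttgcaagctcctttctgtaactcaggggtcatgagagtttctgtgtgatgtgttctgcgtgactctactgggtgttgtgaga

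The 4 peak lists were of very unequal length, and this bears on every count below. They held 39080 peaks in WT 1, 11973 in WT 2, 5589 in Shh-/- 1 and 18459 in Shh-/- 2, which gave 16245, 8443, 3504 and 11637 promoter regions. The mean number of promoter regions was 12344 ± 5517 in WT and 7570.5 ± 5751 in Shh-/- (SD, n = 2 each), a difference of 4773.5 that was smaller than the spread within either genotype (two-sided exact permutation test, p = 0.667, where 2 against 2 libraries cannot go below 0.333). Shh-/- 2 decided nearly all of the membership. Of the 8031 promoter regions called in both WT libraries, 459 (5.72%) were missing from Shh-/- 2 and 4929 (61.4%) from Shh-/- 1, and 450 of the 459 were also missing from Shh-/- 1. An uncalled promoter is not thereby a closed one, and peak lists do not tell how deeply the libraries were sequenced.

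The score that accompanies each peak was used to rank peaks within their own list and, in 1 alternative given at the end, as a common minimum of 50. The 450 regions were weak in both WT lists. Their scores ran from 14 to 507 with a median of 53 in WT 1, and from 14 to 153 with a median of 34 in WT 2, where the lowest score of either list was 14. The Shh-/- lists began at higher scores, 19 in Shh-/- 1 and 18 in Shh-/- 2. Of the 450 regions, 21 scored under 20 in WT 2. In the regions called in all 4 libraries the medians were 587 in WT 1 and 133 in WT 2, and in those shared with Shh-/- 2 alone they were 178 and 57. The median rank of the 450 regions was 15232.5 in WT 1 and 8626 in WT 2, or 39.0% and 72% of the way down the lists. When the 8031 regions were divided into 5 equal groups by the worse of their WT ranks, 0 of the 1607 best ranked were called only in WT, and 381 of the 1606 worst ranked were (23.7%, 95% Wilson interval 21.7 to 25.9). Calls in Shh-/- 1 dropped from 90.8% to 5.11% over the same groups and calls in Shh-/- 2 from 99.9% to 76.0%.

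**Figure D1:**
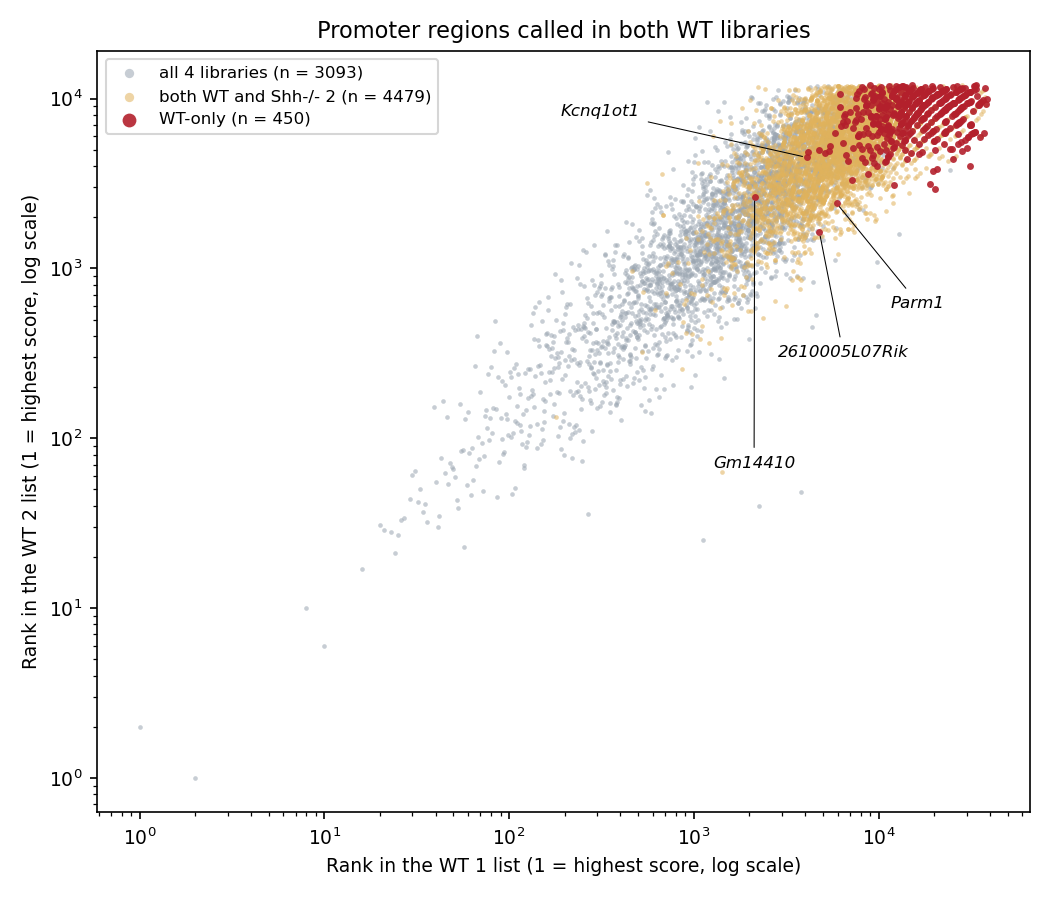
Rank of each promoter region called in both WT libraries in the WT 1 list (x axis) and the WT 2 list (y axis), both on log scales with 1 for the highest score, coloured by the libraries that called it; the 9 regions shared with Shh-/- 1 alone are left out. The 450 WT-only regions crowd into the low-ranked corner, and Gm14410, 2610005L07Rik and Kcnq1ot1 are among the few that lie inside the cloud of shared promoters.

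**Figure D2:**
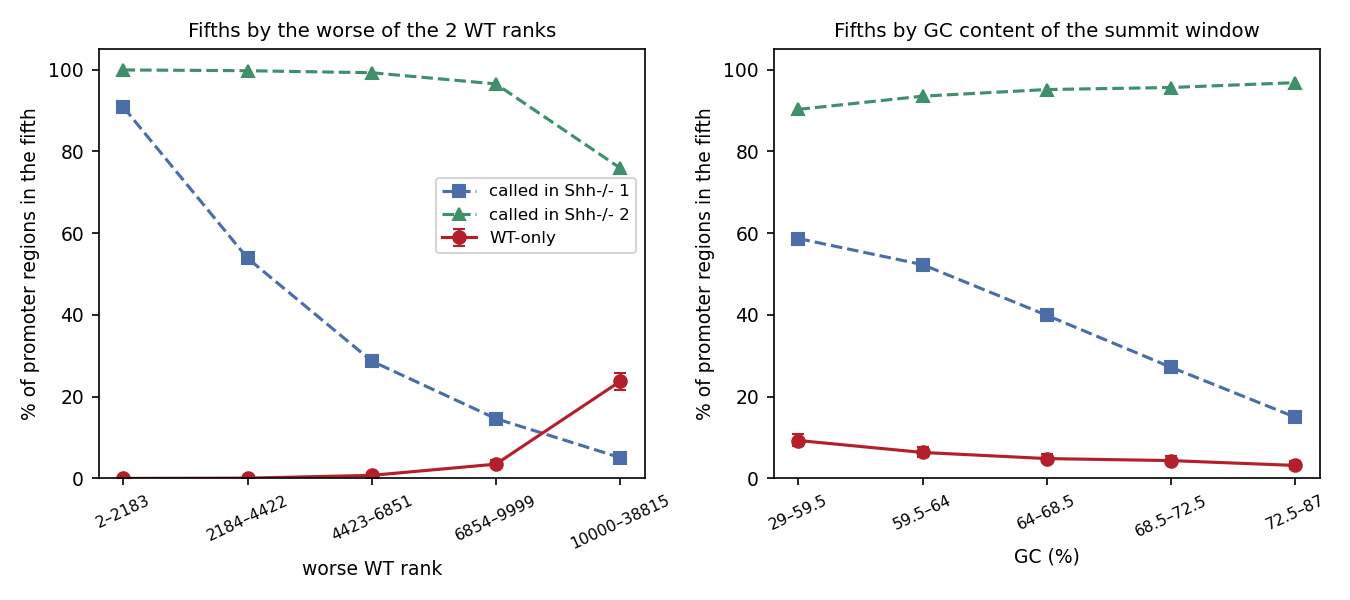
Share of promoter regions called in both WT libraries that were WT-only (red, with 95% Wilson intervals), called in Shh-/- 1 (blue) or called in Shh-/- 2 (green), in 5 equal groups by the worse WT rank (left) and by GC content (right). The WT-only share is 0% in the best ranked group and 23.7% in the worst ranked, and changes less with GC, from 9.27% to 3.18%.

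Only 8 of the 450 regions ranked within the first 5589 peaks, the length of the smallest list, in both WT libraries. The best was Gm14410, a predicted protein-coding gene, with a score of 507 (rank 2134) in WT 1 and 103 (rank 2637) in WT 2, and its nearest Shh-/- 2 peak was 258.0 kb away. The promoter of Kcnq1ot1, the paternally expressed noncoding RNA of an imprinted domain on chromosome 7, scored 286 (rank 4077) and 66 (rank 4510), with no Shh-/- 2 peak nearer than 83.8 kb. Rrp36, whose product takes part in processing of ribosomal RNA, scored 286 and 66, and the zinc finger genes Zfp758 and Zfp426 scored 231 and 209 in WT 1 and 66 and 57 in WT 2. The other 3 were 2610005L07Rik with scores of 241 and 153, Gm14403 with 241 and 57, and Gm22265, annotated as a small nuclear RNA, with 209 and 57. Next in rank came Parm1 (188 and 112), Cox16, an assembly factor of cytochrome oxidase (199 and 49), Sybu (178 and 57) and Fgf11, a member of the fibroblast growth factor homologous factors (168 and 66).

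Several of the best ranked regions lie in duplicated sequence, where a read may have more than 1 place in the genome. As a measure of this, every 31-base word in the 200 bp around each summit was counted on the chromosomes of mm10. For Gm14410, 81.8% of the words occurred more than 1 time, with a median of 14 copies, and the values were 81.8% for 2610005L07Rik, 63.5% for Gm14403 and 41.2% for Zfp758. They were 0% for Kcnq1ot1, Rrp36, Zfp426, Parm1, Cox16, Sybu and Fgf11, and 7.06% for Gm22265. The starts of Gm14410 and Gm14403, which lie in the same cluster of predicted genes, were 72.8% identical over 522 aligned bases, with an unbroken run of 77 identical bases. Over the whole set, 403 of 450 windows held no repeated word and 8 (1.78%) were repeated over more than 50% of their words, against 0.938% of the regions called in all 4 libraries and 0.647% of those shared with Shh-/- 2 alone. The part of such sequence in the missing calls was not tested.

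Among genes that respond to SHH in the limb bud, 11 of 19 listed had a promoter region called in both WT libraries and 1 of those 11 had a WT-only region, Hoxd11. The background over all genes was 5.0% (526 of 10520 genes), and with 11 genes a count of 1 cannot be read as a departure from it. Ptch1, which encodes the SHH receptor, was called in all 4 libraries, with scores of 839, 34, 19 and 276 in WT 1, WT 2, Shh-/- 1 and Shh-/- 2. Hoxd11, a homeobox gene of the posterior and distal limb, was a weak member whose region at chr2:74682608-74683041 scored 25 in WT 1 (rank 28823) and 20 in WT 2 (rank 10384). A stronger WT 1 peak just upstream of its TSS, with a score of 93, had no counterpart in WT 2.

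Gli1, the Hedgehog (HH) target most often used as a readout of the pathway, was not a member, and the reason lies in the merging of peaks. Its WT 1 peak was unusually wide, from -666 to +2991 bp around the TSS with a score of 188, and the WT 2 peak in the promoter window lay from +913 to +1511 bp with a score of 49. Shh-/- 1 and Shh-/- 2 each had a small peak only beyond the window, from +2674 to +2908 bp (score 34) and from +2672 to +2913 bp (score 31), which the wide WT 1 peak joined to the same region. Counting peaks inside the promoter windows of each gene in place of merged regions, an alternative chosen after this was seen, 497 of 10529 genes (4.72%) had a peak of each WT library and none of a Shh-/- library, 397 of them among the 526 genes of the merged regions. Gli1, Hoxd11 and Osr1 were then 3 of 12 HH target genes, a small count from which no departure from that share is read. At Osr1, a transcription factor of limb mesenchyme, the WT 1 peak (-64 to +632 bp, score 53) and the WT 2 peak (-698 to -496 bp, score 49) did not overlap each other. Osr1 also had a Shh-/- 2 peak just beyond the promoter window, from -2214 to -2013 bp (score 24).

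**Figure D3:**
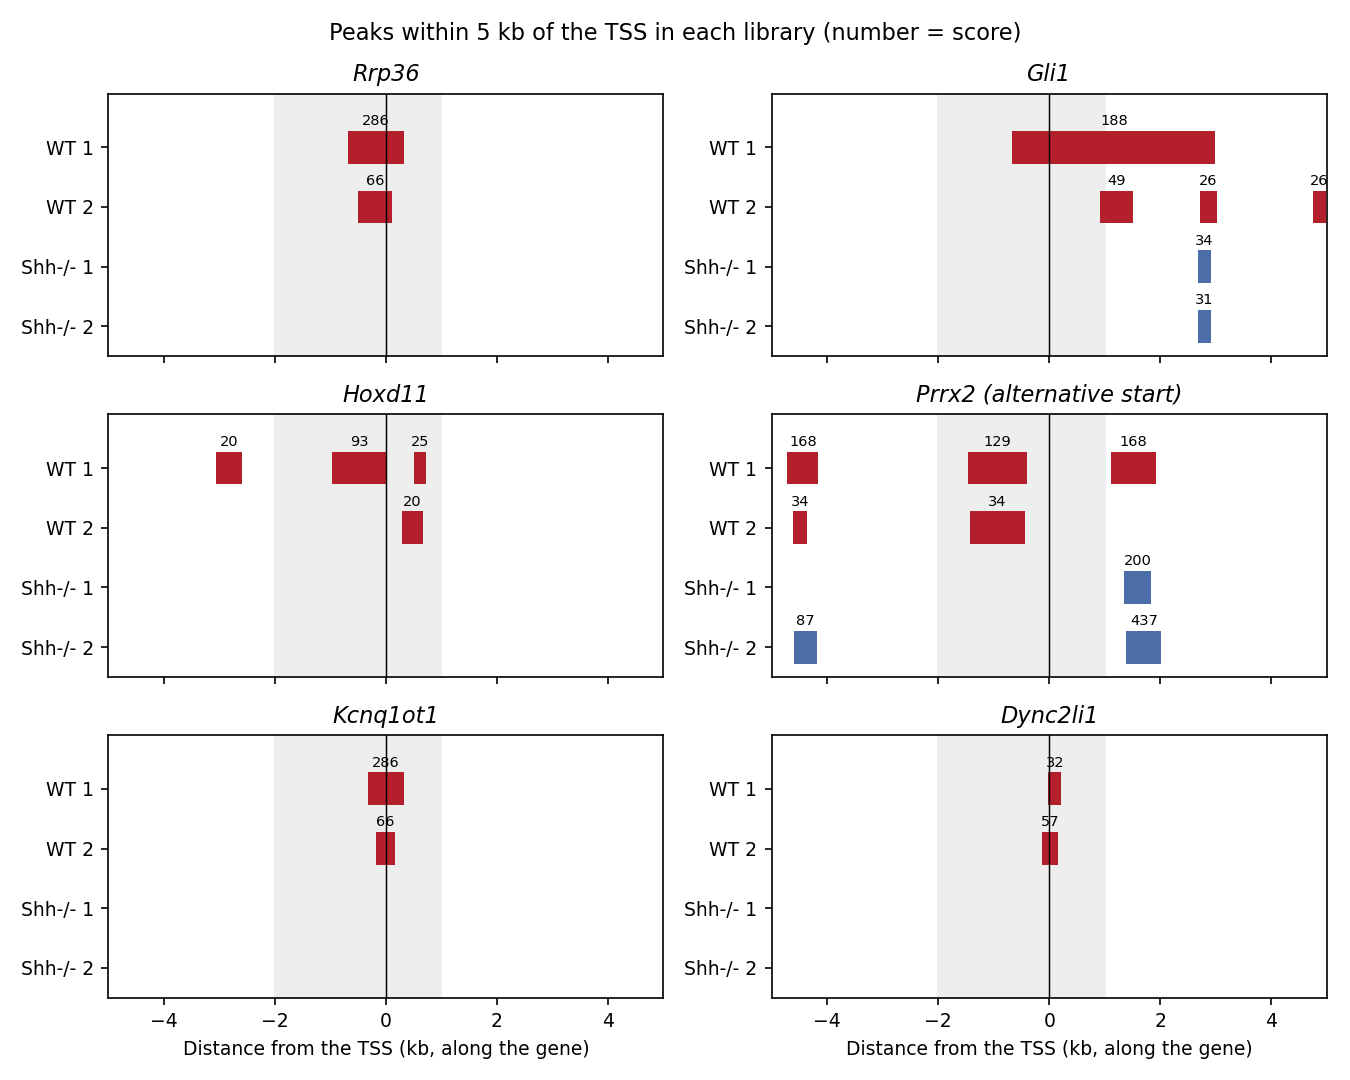
Peaks within 5 kb of the TSS of 6 genes in WT (red) and Shh-/- (blue) libraries, with the score above each bar, distance from the TSS along the gene on the x axis and the promoter window shaded. Rrp36, Kcnq1ot1 and Dync2li1 have WT peaks at the TSS and no Shh-/- peak in view, Gli1 has Shh-/- peaks only beyond the window, and Prrx2 is shown at its alternative start.

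Of the genes for the transduction of the signal, 1 of 19 called in both WT libraries had a WT-only region. This was Boc, an SHH co-receptor, whose region was weak (scores 38 and 34) and lies also beside the hairpin of Mir3081. The genes for the other receptors, transducers and transcription factors had promoters shared with at least 1 Shh-/- library. Gas1 scored 641, 186, 188 and 463 in WT 1, WT 2, Shh-/- 1 and Shh-/- 2, Smo scored 357, 34 and 78 in WT 1, WT 2 and Shh-/- 2, and Gli3 scored 369, 66, 26 and 264 in the 4 libraries. Of the genes for assembly of the primary cilium, 2 of 45 had a WT-only region, Dync2h1 (scores 25 and 26) and Dync2li1 (32 and 57), which encode the heavy chain and the light intermediate chain of the dynein motor for retrograde transport in the cilium. Both counts, 5.26% and 4.44%, lie near the background of 5.0%. Dync2h1 had stronger peaks at another of its annotated starts, with scores of 148 in WT 1, 66 in WT 2 and 96 in Shh-/- 2, the last of them 7.42 kb from the WT-only region. Counted by promoter windows in place of merged regions, 1 of 45 cilium genes (Dync2li1), 1 of 21 transduction genes (Boc) and 1 of 27 limb patterning genes (Prrx2) had peaks in WT alone.

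Of 28 limb patterning genes called in both WT libraries, 1 had a WT-only region (3.57%). It was Prrx2, a homeobox gene of limb mesenchyme, at an alternative start (Prrx2-202) upstream of its main promoter, chr2:30833507-30834572. The region scored 129 in WT 1 (rank 8037) and 34 in WT 2 (rank 7609). Peaks of the Shh-/- libraries lay close by, 1.75 kb away in Shh-/- 1 and 1.79 kb away in Shh-/- 2, where a peak beyond the alternative start scored 200 and 437. The main promoter of Prrx2 was also without a Shh-/- peak, but its WT peaks were weak, with scores of 38 in WT 1 and 14 in WT 2, and did not overlap. Other developmental regulators stood among the 450, picked here after their values were seen. Wnt11, a secreted WNT ligand, scored 168 and 34, and Bdnf, a neurotrophin, scored 84 and 26 at an alternative start. Runx2, the regulator of bone formation, scored 25 and 49 at an alternative start. Its WT peaks overlapped only at their edges, with summits at +386 bp in WT 1 and +625 bp in WT 2.

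The remaining gene lists, which were chosen by symbol, had shares from 0% to 10.53%, beside the background of 5.0%, except for the smallest lists. The zinc finger list held the most genes, with 16 of 236 (6.78%), led by Zfp758, Zfp426 and Zfp105 (scores 120 and 57). These are counts of genes and not of regions, as Zfp758 and Zfp944 share 1 region. The symbols of Zfp133-ps and Zfp862-ps mark pseudogenes. Motor protein genes had 4 of 38 (10.53%), the dynein genes Dync1i1, Dync2h1 and Dync2li1 and the kinesin gene Kif2c. This is a small count from which no departure from the background is read. Dync2h1 and Dync2li1 were already counted among the cilium genes, and Dync2h1 had a Shh-/- 2 peak at another start. Solute carriers had 9 of 135 (6.67%), among them Slc43a2 (129 and 49) and Slc48a1 (102 and 20). The lists for pre-mRNA splicing (53 genes), replication-dependent histones (56), the ubiquitin system (109) and mediator and RNA polymerase subunits (40) had 0 members each, and replication and repair had 1 of 60, Mcm3ap. Subunits of the proteasome had 1 of 30 (Psmd6, scores 111 and 26), the respiratory chain 3 of 73 (Cox16, Uqcr11 and Cox14), mitochondrial ribosomal proteins 1 of 43 (Mrps18a) and cytosolic ribosomal proteins 2 of 53 (Rpl23, scores 111 and 66, and Rps4l, scores 38 and 26). Of the lists too small to be read as shares, protocadherins had 1 of 5 (Pcdh1) and chemosensory receptors 0 of 3.

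**Figure D4:**
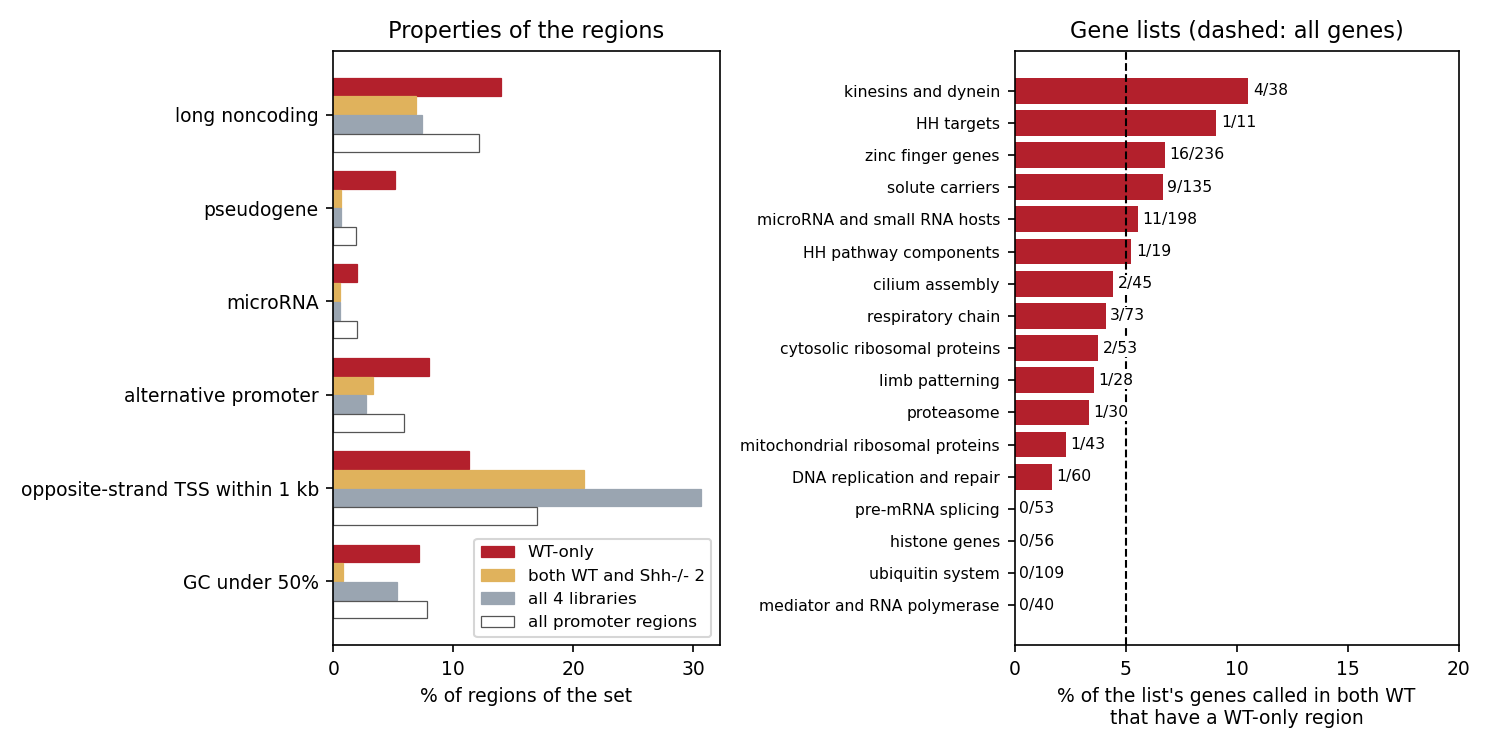
Left, share of the 450 WT-only regions (red), of regions called in both WT libraries and Shh-/- 2 alone (yellow) and of regions called in all 4 libraries (grey) and of all promoter regions (white) with each property. Right, share of genes that had a WT-only region, with counts, for lists with at least 10 genes called in both WT libraries. Cell type markers are left out, and the dashed line is the 5.0% over all genes. Of the lists shown motor proteins stand highest with 4 of 38 genes, above HH targets with 1 of only 11, both small counts.

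By the gene whose TSS lay nearest to the summit, 352 of the 450 regions (78.2%, 95% Wilson interval 74.2 to 81.8) belonged to protein-coding genes. The share was 90.3% for regions called in all 4 libraries, 91.7% for those shared with Shh-/- 2 alone and 83.0% for all 17508 promoter regions, the order in which the next values are given. Long noncoding RNA genes made up 63 regions (14%, against 7.40%, 6.90% and 12.1%), of which 23 were antisense and 18 were lincRNA genes, and Kcnq1ot1 was the best ranked of them. Pseudogenes made up 23 (5.11%, against 0.647%, 0.603% and 1.85%). MicroRNA genes made up 9 (2.00%, against 0.582%, 0.580% and 1.96%), a share close to that of all promoter regions. Mir181c, the best ranked of them, scored 111 and 49 with its summit at -1866 bp, and Mir139 scored 53 and 20. The start annotated for a microRNA is that of its hairpin, so such regions need not be the promoter of the primary transcript. Over genes, the list of microRNA and small RNA genes had 11 of 198 with a WT-only region (5.56%), which is near the background. The 11 were genes of the small RNAs themselves, and neighbours such as Mir181c and Mir181d were counted separately.

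Main and alternative promoters were told apart by the principal transcript of each gene. The region touched the main promoter in 414 of 450 cases (92.0%, interval 89.1 to 94.2), against 97.3% of regions called in all 4 libraries and 96.7% of those shared with Shh-/- 2 alone. The share over all promoter regions, 94.1%, lies within the interval of the members. Of the 36 regions at an alternative promoter, 31 belonged to protein-coding genes. The main promoter of these 36 genes was called in 23 cases in WT 1, 11 in WT 2, 2 in Shh-/- 1 and 13 in Shh-/- 2, an order that follows the lengths of the lists. In 2 genes the main promoter was called in all 4 libraries and a WT-only region lay in the window of an alternative start. They were Kmt5a, a histone H4 methyltransferase (scores 45 and 26), and Wbp1l (45 and 20), both weak. At Kmt5a the main promoter scored 600 in WT 1, 243 in WT 2, 34 in Shh-/- 1 and 386 in Shh-/- 2. The alternative start of Kmt5a was itself called in Shh-/- 2, with a peak from -463 to -74 bp (score 96) that lay nearer to it than the WT-only region at +455 to +1395 bp. In 13 genes, Gm14410, 2610005L07Rik, Bdnf and Runx2 among them, the main promoter was called in no library. More widely, 115 of the 450 regions belonged to a gene with a promoter window elsewhere, and that window was called in 70 cases in WT 1, 26 in WT 2, 6 in Shh-/- 1 and 39 in Shh-/- 2.

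The summit lay a median of 223.5 bp from the TSS, against 95 bp for regions called in all 4 libraries, 80 bp for those shared with Shh-/- 2 alone and 141 bp for all promoter regions. It lay within 100 bp of the TSS in 31.6% of regions, against 51.8%, 57.3% and 41.0% in the same order. A summit more than 1000 bp away was found in 72 regions (16%, against 3.59%, 2.79% and 11.5%). The median width of the members was 598 bp against 1169, 924 and 689 bp, and fewer had a TSS of another gene within 1 kb on the opposite strand (11.3% against 30.7%, 20.9% and 17.0%). The pair of WT peaks in a region overlapped closely in most cases, with summits no more than 200 bp apart in 318 regions. In 52 regions (11.6%) the overlap was less than 50% of the shorter peak. Shh-/- peaks were often near. A peak of either Shh-/- library lay within 1 kb of 65 regions (14.4%), within 10 kb of 178 (39.6%) and within 50 kb of 326 (72.4%).

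The median GC content of the 200 bp around the summit was 63.0% in the 450 regions (range 34.5 to 87.0), the same as in the regions called in all 4 libraries and in all promoter regions (63.0% each) and lower than in those shared with Shh-/- 2 alone (69.0%). The distal regions called only in WT had a median of 55.75%. CpG content was lower than in both groups of shared promoters. The ratio of observed to expected CpG had a median of 0.66, against 0.82 in all 4 libraries, 0.87 in those shared with Shh-/- 2 alone, 0.73 in all promoter regions and 0.29 in the distal WT-only regions. Among the 1606 regions with the worst WT ranks, median GC was 63.0% in the WT-only regions and 68.0% in the rest. The median CpG ratio there was 0.65 against 0.83. A ratio of at least 0.6 with a GC content of at least 50% was found in 253 members (56.2%), against 81.2% in all 4 libraries, 87.9% in those shared with Shh-/- 2 alone and 62.3% in all promoter regions. The extremes were Mosmo (87.0% GC, scores 84 and 41), Kcnd2 (84.0%, 60 and 26), Pitpnm2 and Plce1 (82.5% each), and at the other end Gm13222 with 2 regions (34.5% and 37.0%), Gm22265 and Gm37634 (36.0% each). Among the 8031 promoter regions called in both WT libraries, calls in Shh-/- 1 dropped from 58.7% in the 1607 regions with the lowest GC to 15% in the 1606 with the highest, while calls in Shh-/- 2 went from 90.3% to 96.8%.

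**Figure D5:**
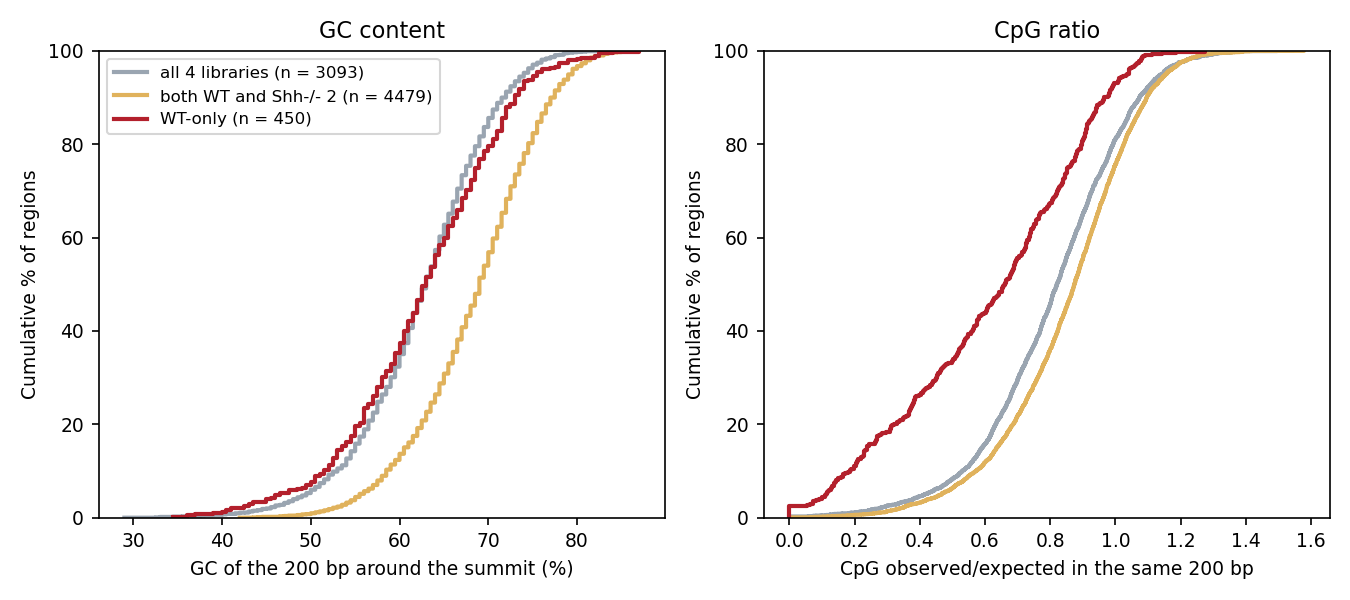
Cumulative share of regions by GC content (left) and by the ratio of observed to expected CpG (right) of the 200 bp around the summit. The WT-only curve follows that of the regions called in all 4 libraries for GC, with medians of 63.0% in both, and lies to the left of both shared groups for CpG, with a median of 0.66 against 0.82 and 0.87.

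Matches to core promoter motifs were counted in the same 200 bp on both strands, where no motif contains another. The GC box of SP and KLF factors (GGGCGG) was found in 36.2% of the 450 regions, against 61.7% of regions called in all 4 libraries, 63.8% of those shared with Shh-/- 2 alone and 45.5% of all promoter regions. The CCAAT box (CCAAT) was found in 18.4%, against 45.7%, 23.4% and 25.6%, and the ETS motif (CCGGAAG) in 6.89%, against 12.1%, 12.9% and 9.19%. The cAMP response element (TGACGTCA) was found in 7 regions (1.56%, against 1.85% of all promoter regions). The E-box (CACGTG) was about as frequent as elsewhere, in 8% of members against 6.25% of all promoter regions, and the TATA box (TATAAA) was found in 3.33% against 2.84%. Matches to the NRF1 and YY1 (AAGATGGC) motifs were found in 3 regions each (0.667%, against 0.965% and 2.44% of all promoter regions). The GLI consensus (TGGGTGGTC) was found in 2 regions (0.444%, against 0.183% of all promoter regions). Such matches describe the sequence and are not evidence of binding.

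Some members lay near one another on a chromosome, and such regions may not be separate cases. On chromosome 7, 5 regions at Cend1, Pidd1, Cracr2b and Cd151 lay within 41.0 kb. On chromosome 1, 6 regions at Ugt1a1, Mroh2a and Trpm8 lay within 92.9 kb, and on chromosome 2, 5 regions at the predicted genes Gm14401, Gm14410, Gm14412 and Gm14403 lay within 425.7 kb. In all, 19 groups of at least 3 regions within 500 kb were found. The same count was not made for other promoter regions, so no closer spacing of the members is read from it.

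The limit of the rule can be seen from either side. The 4 weakest members, ordered by their worse rank, were Sfxn1 (scores 20 in WT 1 and 49 in WT 2), Ankrd2 (20 and 20), Gm42599 (14 and 26) and Gm16505 (14 and 26). The 4 regions just outside, each called in Shh-/- 2 at that list's lowest score of 18, were Neurl1a (45 and 34 in the WT lists), Vegfb (93 and 20), Sncaip (38 and 41) and 4930588K23Rik (76 and 41). There were 17 regions at that score and 64 of 4488 below 25.

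The genes that make up the set depended on the length of the lists. With each list limited to its 5589 best peaks, 311 promoter regions at 310 genes were called only in WT, of which 11 were among the 442 nearest genes of the 450 regions. With a score of at least 50 required in every list there were 129 regions, and 45 of their 129 genes were among the 442. Without Shh-/- 2 there were 4941 regions, without WT 1 there were 907 and without WT 2 there were 5419, while leaving out Shh-/- 1 gave 459.

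The promoters of marker genes were checked against the labelled tissue. All 7 markers of limb mesenchyme (Prrx1, Tbx5, Twist1, Msx1, Lhx9, Hoxa9 and Hoxd9) had a peak in WT 1, 4 in WT 2, 3 in Shh-/- 1 and 6 in Shh-/- 2, and of 6 posterior limb markers 5, 2, 1 and 3 were called. Of 7 limb ectoderm markers 2, 0, 0 and 2 were called, of 6 endothelial markers 2, 1, 0 and 2, of 6 blood markers 2, 1, 0 and 2, and of 4 neural crest markers 3, 1, 0 and 1. Of 4 markers of muscle progenitors 3, 1, 0 and 3 were called, and 1 of these genes, Lbx1, had a WT-only region, with scores of 32 and 20, while Shh-/- 2 had peaks at its TSS and upstream of it that did not overlap this region. The part of cell composition in the missing calls was not tested.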

How the data were processed

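ATAC-seq peak lists of 2 WT and 2 Shh-/- posterior forelimb bud samples were used, with genotype and replicate taken from the sample titles. The authors called peaks in each library separately at a q-value cutoff of 0.05 in mm10 coordinates. Per the submitters' processing notes, Bowtie2 2.2.5 and MACS2 2.1.0 were used. The deposited score of each peak, whose scale the files do not state, served for ranking within a list, with ties ordered by position, and as a minimum of 50 in 1 alternative. Peaks were merged with Python 3.11.15 (pandas 2.3.3, numpy 2.4.6), sequence was read with pysam 0.24.0, and TSS came from GENCODE M21 basic. The main promoter is that of the transcript with the best APPRIS principal tag. GC content is that of 200 bp around the summit of the better ranked WT peak. Merging was tested on simulated lists. Named regions were the 12 best ranked, those at genes of the 4 HH, cilium and limb lists, the 3 best of each symbol list, the 4 extremes of GC at either end, alternative starts with a main promoter called in all 4 libraries and the 4 weakest. The regions, lists and rules were chosen with earlier results of these data known. Wilson intervals and shares take regions as units and cover counting error only. Alternatives were summit distance, distance to a Shh-/- peak, score, list size, window, annotation, chromosomes and leaving out each library. The limma fit of the study needs read counts, which peak lists do not hold, and was not used here. 1 listed gene is not reported here and was left out of its list.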

Additional observations from a re-analysis of the deposited data

How the results depend on the processing

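In 1 alternative, peaks of all 4 libraries were joined by summits within 200 bp in place of 1 bp of overlap. Beside the 450 regions this gave 602, 8.52% of the promoter regions called in both WT libraries. Of these, 83.1% were at protein-coding genes, and the median GC was 66%. Such a region may overlap a Shh-/- peak whose summit lies farther away, and 318 of the 598 genes were among the 442 nearest genes of the 450 regions. A score of at least 50 gave 129 regions, 2.58% and a median GC of 65.5%. At equal list size the share was 7.73%, with 91.6% at protein-coding genes, a median GC of 67.5% and 95.2% at a main promoter. The share was 4.79% with no Shh-/- peak within 1 kb, 4.60% with a 500 bp window and 4.98% with protein-coding TSS only, where 100% are protein-coding by construction. Leaving out each library in turn gave 459 to 5419 regions, shares of 5.72% to 61.5%, 72.9% to 90.4% at protein-coding genes, median GC of 57.5% to 68.5% and 90.6% to 96.2% at a main promoter. At equal list size the protein-coding share and the GC content came close to those of the promoters shared with Shh-/- 2 alone, and the cause of these shifts was not tested. The other alternatives kept each value within its interval or the count within 1.5 times.

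The difference in promoter regions per library kept its sign under every alternative run, from 705.5 without Shh-/- replicate 1 to 8944.5 without Shh-/- replicate 2, and was 813 at equal list size (p = 0.333, the smallest the exact permutation test allows). With the replicate block it was 4773.5 (exact sign-flip permutation p = 1, where 0.5 is the smallest), and the replicate numbers pair no embryos. The correlation of replicate differences between the genotypes was 0.159 over 17508 promoter regions. The limits are those of peak lists: no counts, unknown depth, 2 embryos per genotype, and calls in Shh-/- 2 that decided nearly all of the membership.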
